A study of Mus musculus with 8 samples.

Results

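The genes described are 9 receptors through which blood cells receive growth factors: Csf3r, Csf1r, Csf2ra, Csf2rb, Csf2rb2, Il3ra, Kit, Flt3 and Epor. They were chosen by name, as cytokine and tyrosine kinase receptors of blood cells, and make up 9 of the 18860 genes with a row in the deposited tables. All 9 were found, and all 9 had enough reads to be tested. RNA was sequenced from leukaemia cells of the bone marrow of moribund C57BL/6 mice, in 4 libraries of each of 2 genotypes. The 11B3-deleted group has the genotype 11B3fl/p53fl, with a floxed 11B3 interval of chromosome 11 on one copy and a floxed p53 allele on the other. The p53-loss-only group is p53fl/fl, with a floxed p53 allele on both copies. Both groups also carry shNf1, shMll3 and Vav1-Cre, a recombinase driven in blood cells, so no library is free of these alterations. The labels call the cells acute myeloid cells and count lines rather than animals, and p-values therefore measure the spread between these libraries. The question put to the data was which receptors each of the 8 leukaemias expressed, and whether the genotypes differed in them.

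Growth factor receptors let a blood precursor survive, divide and mature in response to a circulating or local factor. Csf3r binds granulocyte colony-stimulating factor, and Epor binds erythropoietin. Csf2ra and Il3ra are the ligand-specific alpha chains for GM-CSF and interleukin 3, and they signal with the shared beta chain Csf2rb. Csf2rb2 is a mouse-specific second beta chain that works with Il3ra for interleukin 3. None of these chains is itself a kinase. The receptors they form signal through kinases such as Jak2 and factors such as Stat5. Csf1r, Kit and Flt3 are related receptor tyrosine kinases, which bind macrophage colony-stimulating factor, stem cell factor and Flt3 ligand. In marrow, Kit and Flt3 are known from immature cells, Csf3r and Csf1r from granulocytes and monocytes, and Epor from erythroid precursors.

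Promoter sequences are shown for 4 receptors, chosen because Csf2ra, Il3ra and Csf2rb2 took part in the pairs that varied together and because Epor varied most. Each runs from 250 bases before to 50 bases after the RefSeq start of the gene and is given 5′ to 3′ on the strand the table names (build GRCm38.p6). For Csf2ra, Csf2rb2 and Il3ra, stretches of 20 bases of the window matched GENCODE transcripts of the gene in that direction and none in the other. For Il3ra no match lies wholly within the 50 bases after the RefSeq start, and the nearest GENCODE start is 55 bases upstream of it. The Epor window matched no Epor transcript in either direction, and the nearest GENCODE start is 70 bases downstream of the RefSeq start, so its strand and start rest on the RefSeq table alone. The windows are chr19:61228369-61228668 on the minus strand for Csf2ra, chr15:78305672-78305971 on the minus strand for Csf2rb2, chr14:14346245-14346544 on the plus strand for Il3ra and chr9:21963527-21963826 on the minus strand for Epor. Capitals mark GAGGAA, letters found in many PU.1 sites, and AGATAA, which binds factors such as Gata1, on either strand.
Csf2ra: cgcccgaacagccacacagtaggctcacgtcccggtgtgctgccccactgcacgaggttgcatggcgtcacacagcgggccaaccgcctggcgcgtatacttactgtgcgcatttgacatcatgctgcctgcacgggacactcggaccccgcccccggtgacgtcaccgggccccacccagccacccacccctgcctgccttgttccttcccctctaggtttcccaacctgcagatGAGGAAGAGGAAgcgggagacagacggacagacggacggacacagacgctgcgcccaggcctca
Csf2rb2: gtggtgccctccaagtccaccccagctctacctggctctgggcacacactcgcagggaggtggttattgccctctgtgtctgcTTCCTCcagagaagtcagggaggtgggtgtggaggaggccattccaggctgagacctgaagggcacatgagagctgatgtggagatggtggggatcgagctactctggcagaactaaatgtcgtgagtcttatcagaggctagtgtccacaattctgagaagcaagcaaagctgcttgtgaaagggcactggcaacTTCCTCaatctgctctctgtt
Il3ra: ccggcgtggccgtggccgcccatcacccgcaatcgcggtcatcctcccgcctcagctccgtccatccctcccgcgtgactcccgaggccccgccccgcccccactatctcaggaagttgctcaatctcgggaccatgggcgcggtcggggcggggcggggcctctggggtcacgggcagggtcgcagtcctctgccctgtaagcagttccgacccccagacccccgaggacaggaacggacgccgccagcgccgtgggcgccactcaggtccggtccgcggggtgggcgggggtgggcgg
Epor: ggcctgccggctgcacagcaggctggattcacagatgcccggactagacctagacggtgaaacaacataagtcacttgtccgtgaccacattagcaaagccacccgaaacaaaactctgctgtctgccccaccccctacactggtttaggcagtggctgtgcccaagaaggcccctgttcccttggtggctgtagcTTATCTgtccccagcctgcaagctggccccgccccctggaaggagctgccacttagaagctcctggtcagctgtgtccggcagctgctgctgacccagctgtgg
GAGGAA was found 2 times in the Csf2ra window and 2 times in the Csf2rb2 window, on one strand or the other, and not in those of Il3ra and Epor. Of all 32851 promoter windows of that length searched, 28.3% held it. AGATAA was found once, in the Epor window and in no other of the 4, and 11.2% of all windows held it. Of the other motifs searched, neither set in capitals, TTGCNNAA (a C/EBP motif) was found once in the Il3ra window and not in the other 3, and 10.8% of all windows held it. TGTGGT (a RUNX motif) was found once in the Epor window and not in the other 3, and 16.8% of all windows held it. These matches describe letters only.

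Per length of transcript, Csf1r, Csf2ra, Csf2rb and Csf3r were the most abundant receptors of these leukaemias, and Epor was the least abundant and the most variable. Levels between genes are compared here as scaled reads (the deposited value minus 1) per kilobase of the longest protein-coding transcript. The median over the 8 libraries was 2920 for Csf1r (range 1510 to 6650), 2670 for Csf2ra (1600 to 5980), 2280 for Csf2rb (1180 to 4010) and 2070 for Csf3r (1290 to 4310). These 4 ranges overlap, and their order was not the same when all annotated exons were used as the length: Csf3r was then the second and Csf2rb the fourth, and Il3ra stood above Flt3. Flt3 followed at 1190 (618 to 2240), then Il3ra at 908 (278 to 1340), Csf2rb2 at 565 (70.3 to 1320), Kit at 466 (125 to 1060) and Epor at 217 (9.34 to 2210). Neighbours in this order overlapped over the libraries in every case.

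**Figure D1:**
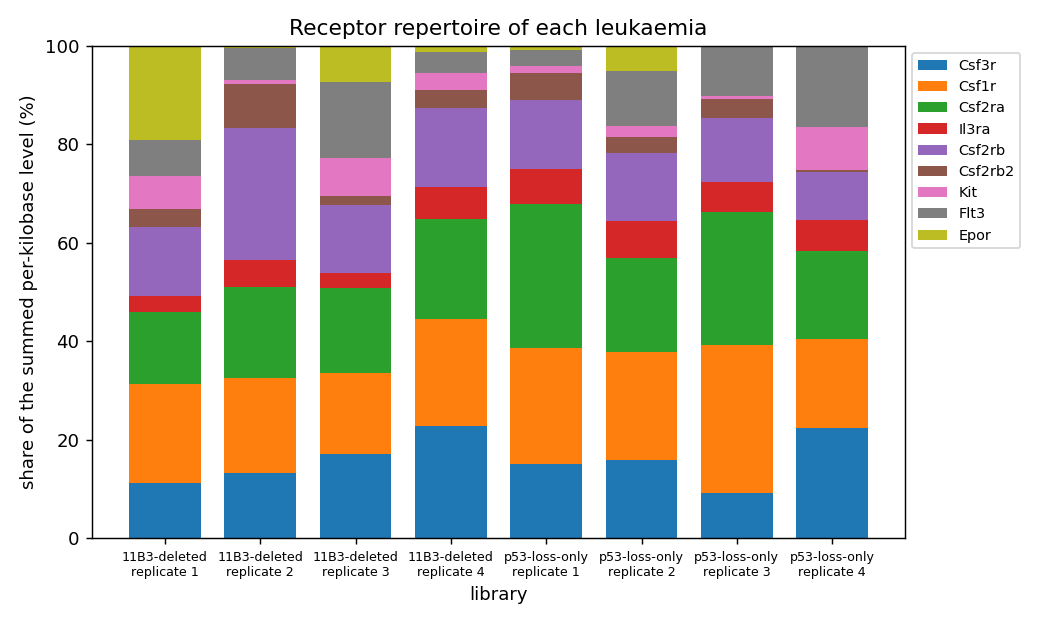
Share of the summed per-kilobase level of the 9 receptors (y axis, %) in each of the 8 libraries (x axis), with 1 colour per receptor and no error bars, since each bar is 1 library. Epor takes 19.1% in 11B3-deleted replicate 1 and 0.0423% in p53-loss-only replicate 3, and Csf2rb takes 26.8% in 11B3-deleted replicate 2.

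The leading receptor was not the same in every leukaemia. Csf1r led in 11B3-deleted replicate 1 and in p53-loss-only replicates 2 and 3, with 20.2%, 21.9% and 30.1% of the summed per-kilobase level. Csf3r led in 11B3-deleted replicate 4 (22.9%) and p53-loss-only replicate 4 (22.4%). Csf2ra led in 11B3-deleted replicate 3 (17.3%) and p53-loss-only replicate 1 (29.4%), and Csf2rb led in 11B3-deleted replicate 2 (26.8%). With all annotated exons as the length, Epor led in 11B3-deleted replicate 1, Csf3r in 11B3-deleted replicate 3 and Csf1r in p53-loss-only replicate 1, while the other 5 leaders stood. Profiles were also compared between libraries, by the root mean square difference of the 9 log2 values. The median was 1.71 over the 12 pairs of libraries of the same genotype (range 0.819 to 2.21) and 1.69 over the 16 pairs of different genotype (0.553 to 2.98). The closest pair joined 11B3-deleted replicate 4 and p53-loss-only replicate 1. For 3 of the 8 libraries the nearest profile was of the same genotype, and the count was also 3 without Epor.

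None of the 9 receptors differed detectably between the genotypes. With limma and Benjamini-Hochberg adjustment over all genes tested, 0 of 9 passed the threshold of 0.05, and 0 of 9 had an unadjusted p under 0.05. Both edgeR and DESeq2 on the recovered reads also called 0, with 0 at an unadjusted p under 0.05. The background was low as well: limma called 0.0136% of the 14679 genes tested, edgeR 0.00681% and DESeq2 0.395% (it gave an adjusted p for 13073 of them, the 9 receptors included), and 3.56% of the genes had an unadjusted limma p under 0.05 (1.18% with a higher and 2.38% with a lower mean in the 11B3-deleted group). For edgeR and DESeq2 the share of all genes at an unadjusted p under 0.05 is not given here. Their counts at that level, here and below, cannot be read as more or fewer than among all genes. The 2 groups of libraries overlapped for all 9 receptors, where the groups of 2.15% of tested genes did not overlap. The mean log2 value was higher in the 11B3-deleted group for 4 receptors and lower for 5, against 51.6% higher over all tested genes. The median log2 difference was -0.24 over the receptors and 0.01 over all tested genes.

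**Figure D2:**
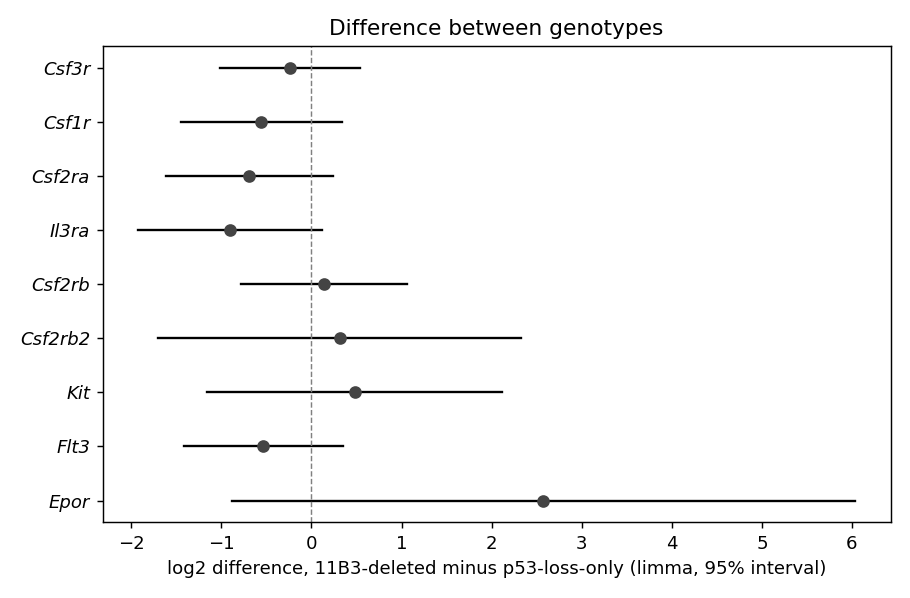
Log2 difference between the genotypes (x axis, 11B3-deleted minus p53-loss-only) for each receptor (y axis), with points for the limma estimate and bars for its 95% interval, 4 libraries per group. Every bar crosses 0, and that of Epor is the widest, from -0.88 to 6.03.

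**Figure D3:**
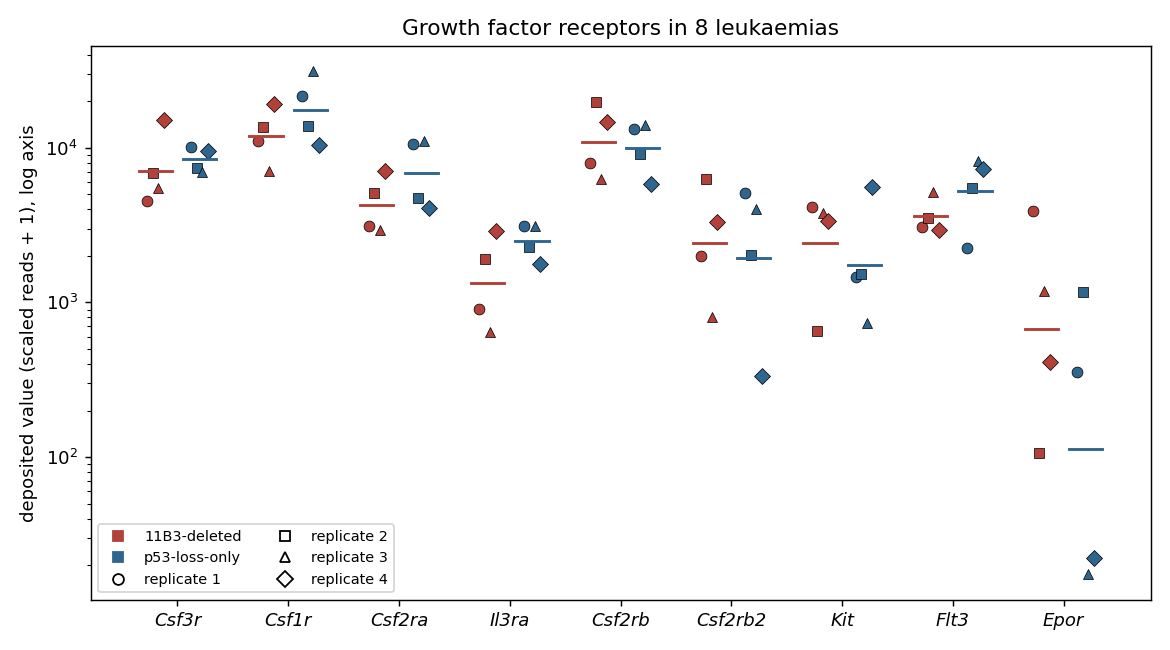
Deposited value of each receptor (y axis, scaled reads plus 1, log axis) in the 4 libraries of each genotype, with 1 symbol per replicate number and a line at the mean of the log2 values. The groups overlap for every receptor, and Epor spans the range from 17.4 to 3896.

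Csf3r, the receptor for granulocyte colony-stimulating factor, was the least variable of the 9. Its deposited values were 4504, 6878, 5513 and 15012 for 11B3-deleted replicates 1 to 4, against 10069, 7424, 7000 and 9560 for p53-loss-only replicates 1 to 4. The highest and the lowest library were both 11B3-deleted, and 3 of the 4 lay below every p53-loss-only library. The log2 difference was -0.24 (SE 0.35, 95% interval -1.02 to 0.54, limma adjusted p = 0.996). It rested on single libraries: it was -0.60 without 11B3-deleted replicate 4 (limma unadjusted p = 0.0228, adjusted p = 0.918) and -0.02 without 11B3-deleted replicate 1. Of the granulocyte markers, all 20 had a row, and their summed level ran from 554331 to 1465935 in the 11B3-deleted libraries and from 737214 to 1577501 in the p53-loss-only libraries. That summed level was lowest in the library with the least Csf3r, 11B3-deleted replicate 1, but highest in p53-loss-only replicate 3, which had the least Csf3r of its group. A single gene, Chi3l3, a chitinase-like protein chosen after its values were seen, gave 36% to 77.2% of the sum in each library. The part of such cells in the Csf3r level was not tested. In bulk RNA, fewer cells of a type and less RNA per cell cannot be told apart. The gene nearest to Csf3r in pattern was C3, a complement component, with a root mean square difference of 0.053 between centred log2 values over the 8 libraries, where the median of the 10088 genes compared was 0.633. S100a11 was next at 0.18.

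Csf1r, which binds macrophage colony-stimulating factor, stood at 10983, 13667, 7114.5 and 19231 for 11B3-deleted replicates 1 to 4, against 21427, 13795, 31266 and 10359 for p53-loss-only replicates 1 to 4. The extremes were p53-loss-only replicate 3 at the top and 11B3-deleted replicate 3 at the bottom, 4.39-fold apart. The log2 difference between the groups was -0.56 (SE 0.39, 95% interval -1.45 to 0.34, limma adjusted p = 0.996). An exon of Csf1r overlaps one of Hmgxb3 on the other strand, and the sources used here do not say whether strand was used in counting. Hmgxb3 itself was between 1410 and 2387 in every library, below Csf1r in each. The summed level of the 20 monocyte and macrophage markers was also highest in p53-loss-only replicate 3 (697064) and was 255183 to 541699 in the 11B3-deleted group against 363144 to 697064 in the other, and its part in the Csf1r level was not tested.

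Csf2ra, the GM-CSF alpha chain, stood at 3106, 5119, 2960 and 7055 over the 11B3-deleted replicates, against 10494, 4740, 11062 and 4080 over the p53-loss-only replicates. It was highest in p53-loss-only replicates 1 and 3, above every 11B3-deleted library. The log2 difference was -0.69 (SE 0.41, 95% interval -1.61 to 0.23, limma adjusted p = 0.996). Il3ra, the interleukin 3 alpha chain, stood at 902, 1908, 645 and 2893.5 against 3100.5, 2297, 3098 and 1776. Its log2 difference of -0.90 (SE 0.45, 95% interval -1.92 to 0.12, limma adjusted p = 0.996) had the smallest unadjusted p of the 9 receptors, 0.0758. The genotypes overlapped because 11B3-deleted replicates 2 and 4 lay above p53-loss-only replicate 4. Within each library, the scaled reads of Csf2ra were 2.06 to 4.6 times those of Il3ra. An exon of Il3ra overlaps Gm48860 on the other strand, which has no row in the files used here.

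The 2 beta chains varied together, but Csf2rb2 varied much more. Csf2rb stood at 7973, 19658, 6249 and 14722 over the 11B3-deleted replicates, against 13259, 9127, 13955 and 5807 over the p53-loss-only replicates, a 3.39-fold span. Csf2rb2 stood at 1985, 6280, 807 and 3320 against 5068, 2038, 4041 and 334, an 18.8-fold span. 11B3-deleted replicate 2 was the highest and p53-loss-only replicate 4 the lowest library for both genes. As a share of the scaled reads of Csf2rb, those of Csf2rb2 were 24.9%, 31.9%, 12.9% and 22.5% for 11B3-deleted replicates 1 to 4, against 38.2%, 22.3%, 28.9% and 5.74% for p53-loss-only replicates 1 to 4. The log2 differences between genotypes were 0.14 for Csf2rb (SE 0.41, 95% interval -0.79 to 1.06) and 0.32 for Csf2rb2 (SE 0.89, 95% interval -1.70 to 2.33), both with a limma adjusted p = 0.996. Neither direction was stable: leaving out 11B3-deleted replicate 2 or p53-loss-only replicate 4 turned both, to as low as -0.14 for Csf2rb and -0.53 for Csf2rb2, and leaving out 11B3-deleted replicate 4 turned Csf2rb to -0.003. An exon of each gene overlaps an annotated microRNA on the same strand, Mir7676-2 for Csf2rb and Mir7676-1 for Csf2rb2. Neither microRNA has a row of its own. The 2 receptor genes are neighbouring copies with no other annotated gene between them. Of the 50-base windows of Csf2rb2 coding transcripts, 18.8% occur in those of Csf2rb. The sources used here do not say how reads shared between copies were counted, and the values of both are uncertain to that extent. The genes nearest in pattern to Csf2rb2 were Cyp4f18, a cytochrome P450 (root mean square difference 0.30), and Cnr2, a cannabinoid receptor (0.32), against a median of 1.39. Fcgr3, an Fc receptor of monocytes and granulocytes chosen after its values were seen, was low in the same 2 libraries as Csf2rb2. It was at 1117 in 11B3-deleted replicate 3 and 981 in p53-loss-only replicate 4, and was between 5142 and 19296 in the others. Not every gene on the monocyte and macrophage list shared this. Lyz2, also chosen after its values were seen, was at 139210 in 11B3-deleted replicate 3 and at its highest, 274940, in p53-loss-only replicate 4. The part of such cells in the Csf2rb2 level was not tested.

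Kit, the stem cell factor receptor, was highest in the library with the least Csf2rb2 and lowest in the one with the most. Its values were 4133, 659, 3763 and 3362 for 11B3-deleted replicates 1 to 4, against 1453, 1527, 733 and 5565 for p53-loss-only replicates 1 to 4. The highest library was p53-loss-only replicate 4 and the lowest 11B3-deleted replicate 2, and the groups overlapped. In scaled reads, Kit was 16.7 times Csf2rb2 in the former and 0.105 times in the latter. Between genotypes, Kit differed by 0.48 on the log2 scale (SE 0.725, 95% interval -1.16 to 2.12, limma adjusted p = 0.996). Markers of other Kit-bearing cells did not follow it in every library. The stem and progenitor list, which excludes the receptors, had its lowest summed level (16304) in p53-loss-only replicate 4, where its member Cd34 was at 643, and ran from 21254 to 36497 in the 11B3-deleted group against 16304 to 43102. The mast cell and basophil list had 12 of 15 genes with a row and ran from 1754 to 6876 against 2130 to 4393, with Cma1 at no more than 3 reads in any library and Cpa3, a mast cell protease, at 34.0 in p53-loss-only replicate 4. Single genes held much of this sum in some libraries. Il1rl1 was at 4767 where the sum was 5733 (11B3-deleted replicate 1). Gata2, also on the stem and progenitor list, was at 2763 where the sum was 4019 (p53-loss-only replicate 2). The part of cells of either list in the Kit level was not tested. The genes nearest to Kit in pattern were Hrsp12 (root mean square difference 0.32) and Zfp286 (0.35), against a median of 1.15.

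Flt3, the receptor of Flt3 ligand, stood at 3081, 3516, 5201 and 2960 over the 11B3-deleted replicates, against 2261, 5490, 8184 and 7302 over the p53-loss-only replicates. The 3 highest libraries were all p53-loss-only, and so was the lowest. The log2 difference was -0.54 (SE 0.39, 95% interval -1.42 to 0.35, limma adjusted p = 0.996). 11B3-deleted replicate 3 had the highest Flt3 of its group and the highest summed level of B cell markers, 116324 against 7073 to 17583 in the other 7 libraries. Its Cd79a, part of the B cell receptor, was at 9065. The B cell markers of p53-loss-only replicate 3, which had the highest Flt3 of all, summed to 10467. The summed level of dendritic markers, 6104 to 12506 for the 11B3-deleted group against 6171 to 11792 in the other, was 6171 in that library. The part of these cells in the Flt3 level was not tested. Nearest in pattern to Flt3 were Vdr, the vitamin D receptor (root mean square difference 0.30), and Nek6, a kinase of mitosis (0.33), against a median of 0.721.

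Epor, the erythropoietin receptor, had the largest spread of the 9, with a standard deviation of 2.80 on the log2 scale over the 8 libraries that exceeded those of 99.4% of the 11065 tested genes with a mean value of at least 100. It stood at 3896, 106, 1191 and 410 for 11B3-deleted replicates 1 to 4, against 354, 1172, 17.4 and 22.3 for p53-loss-only replicates 1 to 4. The 2 lowest libraries rest on 15 and 20 reads, for which the exact Poisson 95% intervals run from 10.2 to 28.1 and from 14.0 to 33.9 on the scale of the values and cover counting error only. The highest value was 223 times the lowest. High and low libraries occurred in both genotypes, and the log2 difference of 2.57 (SE 1.53, 95% interval -0.88 to 6.03, limma adjusted p = 0.996) did not pass the test; edgeR and DESeq2 estimated 1.81 and 1.84. The difference between the genotype means made up 24.2% of the log2 variation of Epor, where the 9 receptors ran from 1.37% (Csf2rb) to 32.5% (Il3ra). A share of this kind also arises by chance in groups this small, and none of the 9 passed the test.

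Some erythroid genes had a pattern close to that of Epor, and others peaked in another library. The 2 genes nearest in pattern were Car2, a carbonic anhydrase, with a root mean square difference of 0.23 and Ermap, an erythroblast membrane protein, with 0.24, where the median of the genes compared was 2.64. Car2 was at 43867, 1165, 12308 and 3496 over the 11B3-deleted replicates, against 2589, 9678, 133 and 187 over the p53-loss-only replicates. Gata1, a transcription factor of erythroid cells, was highest in 11B3-deleted replicate 1 (5044) and lowest in p53-loss-only replicate 3 (9.77). Of the 19 erythroid markers with a row, 12 were highest in 11B3-deleted replicate 1, as Epor was. The other 7 were highest in p53-loss-only replicate 2: the globin genes Hba-a1, Hba-a2, Hbb-b1 and Hbb-b2, the haem synthesis gene Alas2 and the red cell membrane genes Slc4a1 and Epb4.2. Hba-a1 was at 4710 there against 1497 in 11B3-deleted replicate 1, Hbb-b1 at 6528 against 2636, and Slc4a1 at 3597 against 609; Hbb-b1 and Slc4a1 were chosen after their values were seen. At the low end, 18 of the 19 were lowest in p53-loss-only replicate 3, as Epor was. The erythroid list had 19 of 21 genes with a row, and all 19 were tested. All 19 had a higher mean log2 value in the 11B3-deleted group, against 51.6% of all tested genes, and none passed limma. The mean of the deposited values was lower in that group for some of them, such as Hba-a1 (1222 against 1597). The summed level of the list was 14161 to 224887 for the 11B3-deleted group against 3063 to 55034 for the p53-loss-only group. The part of such cells in the Epor level was not tested.

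**Figure D4:**
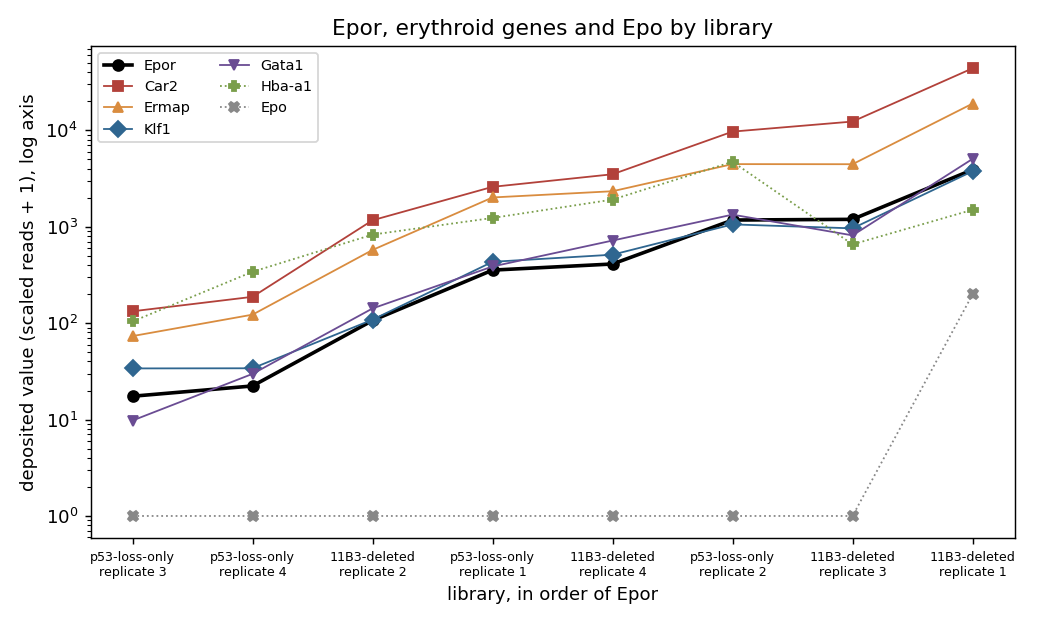
Deposited values (y axis, scaled reads plus 1, log axis) of Epor, of 5 erythroid genes and of the ligand gene Epo in the 8 libraries (x axis), ordered by Epor, with 1 line per gene and 1 point per library. Car2, Ermap, Klf1 and Gata1 run nearly parallel to Epor, Hba-a1 peaks at 4710 in p53-loss-only replicate 2, and Epo leaves 1, the value of no reads, in 11B3-deleted replicate 1 alone.

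Of the 10 ligand genes listed, 6 had a row and 4 were tested. Of these, limma and edgeR called 0 and had 0 at an unadjusted p under 0.05; DESeq2 gave an adjusted p for 2 of the 4, Kitl and Flt3l, and called neither. Csf2, Il3, Il5 and Thpo were not analysed here. Epo, the erythropoietin gene, was chosen for mention after its values were seen. It had 202 reads in 11B3-deleted replicate 1, the library with the most Epor, and 0 reads in each of the other 7. Its value there was 198 (exact Poisson 95% interval 172 to 227, counting error only), at least 60.0-fold higher in scaled reads than the largest value that 3 reads give in any other library. That library also had the highest Cish, a feedback inhibitor and target of Stat5, at 1579, where the other 7 were between 112 and 413. Among the other listed targets of Stat5 and cytokine signals, Osm (718.59), Ccnd2 (4113) and Myc (12570) were also highest there. Ccnd1 (1888.2) and Ccnd3 (6367.5) were not, and Pim3, Bcl2l1, Bcl6, Id2 and Dusp6 were at their lowest in that library. Ccnd2, Myc and the targets at their lowest were named after their values were seen. The part of Epo in these levels was not tested. Csf1, the Csf1r ligand, was at 2208 in p53-loss-only replicate 4 and between 83.0 and 427 in the others; its log2 difference between genotypes was -1.26 (SE 0.78, limma adjusted p = 0.996). Csf1r had its second lowest value, 10359, in the library with the most Csf1. Kitl was between 32.2 and 214, Flt3l between 183 and 422, and Il34, a second Csf1r ligand, between 2.95 and 28.5. Csf3, chosen after its values were seen, was at 7.46 or less in every library.

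Receptors of blood cells outside the 9 numbered 31, of which 29 were tested, and limma called 0 in either direction with 0 at an unadjusted p under 0.05; edgeR called 0 with 3 at an unadjusted p under 0.05, and DESeq2 called 0 of the 26 to which it gave an adjusted p, with 2 of the 29 at an unadjusted p under 0.05. The 4 with the smallest p are given as mean ± SD (n = 4 each). Tek, the angiopoietin receptor, was at 56.3 ± 24.8 in the 11B3-deleted group against 25.6 ± 13.9. Il1rl1, the interleukin 33 receptor, was at 1513 ± 2199 against 109 ± 118, and reached 4767 in 11B3-deleted replicate 1. Crlf2 was at 1473 ± 247 against 1943 ± 312, and Pdgfra at 57.25 ± 25.01 against 33.35 ± 24.47. Of receptors chosen after their values were seen, Il7r was at 5271 in 11B3-deleted replicate 3 and at 69.0 to 258 elsewhere. Il5ra, the alpha chain for interleukin 5 that also pairs with Csf2rb, was at 514 in that library and at 14.7 or less in the others. Il7r is on the list of B cell markers and Il5ra on that of eosinophil markers. The eosinophil markers summed to 7365 in 11B3-deleted replicate 3 and to between 130 and 1905 in the others. The part of such cells in these levels was not tested.

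Downstream of the receptors, 30 signalling genes were tested and limma called 0, with 1 higher and 0 lower gene at an unadjusted p under 0.05; edgeR and DESeq2 called 0, each with 2 at an unadjusted p under 0.05. Sos1, a Ras exchange factor, was at 1905 ± 467 in 11B3-deleted against 1336 ± 52.2 in p53-loss-only libraries (SD, n = 4 each; log2 difference 0.48, SE 0.19, limma adjusted p = 0.996), and it was the only gene of these lists whose groups did not overlap. Jak2, the kinase of Epor, Csf2rb and Csf2rb2, was at 4698 ± 1078 against 3445 ± 376, and Tyrobp, an adaptor of myeloid receptors, at 11340 ± 4517 against 16350 ± 1237 (SD, n = 4 each). Lyn was at 9986 ± 2373 against 12180 ± 1341 (SD, n = 4 each). Of 19 negative regulators, limma called 0 with 1 at an unadjusted p under 0.05, Cish, at 629 ± 648 against 139 ± 18.3 (SD, n = 4 each; log2 difference 1.61, SE 0.66, limma adjusted p = 0.996). Both edgeR and DESeq2 called 0 of them, each with 1 at an unadjusted p under 0.05. Pias3 was at 784 ± 197 against 1044 ± 70.4, the phosphatase gene Inpp5d at 11420 ± 1314 against 9095 ± 2193, and Ptpn1 at 4077 ± 224 against 3511 ± 561 (SD, n = 4 each).

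Of 19 targets of Stat5 and other cytokine signals, limma called 0, with Cish the 1 gene at an unadjusted p under 0.05; edgeR called 0 with 2 at that level and DESeq2 called 0 with 3. Ccnd1, a cyclin of the G1 phase, was at 1609 ± 432 against 3040 ± 1631, Osm at 499 ± 208 against 288 ± 67.8, and Ccnd3 at 9662 ± 3083 against 6871 ± 506 (SD, n = 4 each). Of 22 transcription factors listed as regulators of receptor genes, limma called 0, with 1 higher and 1 lower gene at an unadjusted p under 0.05; edgeR called 0 with 2 at that level and DESeq2 called 0 of the 21 to which it gave an adjusted p, with 4 of the 22 at that level. Meis1 was at 95.4 ± 114 against 16.3 ± 14.5 and Gata2 at 934 ± 690 against 1863 ± 666 (SD, n = 4 each). Mitf was at 632 ± 164 against 1189 ± 588 and Tal1 at 2215 ± 2198 against 786 ± 1097 (SD, n = 4 each). Sfpi1, which encodes PU.1, was even across the leukaemias, between 6670 and 8200, and Cebpa ran from 4643 to 14772; both were chosen after their values were seen. Over all 120 tested genes of these lists the median log2 difference was 0.0012, near the 0.01 of all tested genes, with 61 higher and 59 lower. The edgeR and DESeq2 counts at an unadjusted p under 0.05 have no share over all genes beside them. They cannot be read as more or fewer than among all genes.

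The 9 receptors were then compared with one another across the 8 libraries. Of the 36 pairs, 4 had a Pearson correlation of log2 values with an adjusted p under 0.05 (exact permutation test over the 40320 arrangements of the libraries, two-sided, Benjamini-Hochberg adjustment over the 36 pairs), and all 4 were positive. Csf1r and Csf2ra gave r = 0.950 (exact permutation p = 9.92e-05, adjusted p = 0.00357) and a Spearman rho of 0.952 (exact permutation p = 0.00114, adjusted p = 0.0137). Without the 2 libraries farthest from the median of Csf1r, their r was 0.945. Csf2rb and Csf2rb2 gave r = 0.927 (exact permutation p = 0.000322, adjusted p = 0.0058) and rho = 0.905 (exact permutation p = 0.00456, adjusted p = 0.0329), and r = 0.929 without the 2 farthest. The part of their shared sequence, given above, in this correlation was not tested. Csf1r and Il3ra gave r = 0.874 (exact permutation p = 0.00258, adjusted p = 0.031), rho = 0.952 (adjusted p = 0.0137) and r = 0.815 without the 2 farthest. Csf2ra and Il3ra gave r = 0.888 (exact permutation p = 0.00437, adjusted p = 0.0393), rho = 0.952 (adjusted p = 0.0137) and r = 0.933 without the 2 farthest. With the mean of each genotype removed, the 4 correlations were 0.939, 0.926, 0.844 and 0.846.

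Leaving out p53-loss-only replicate 3, the library with the most Csf1r and Csf2ra, gave 0 of the 36 pairs under the threshold, with fewer libraries to permute. Of the 4 pairs, 2 were called without 11B3-deleted replicate 2, without 11B3-deleted replicate 4 and without either of p53-loss-only replicates 1 and 2; 3 were called without 11B3-deleted replicate 3, and 4 without 11B3-deleted replicate 1 or p53-loss-only replicate 4. Without 11B3-deleted replicate 4, the negative correlation of Csf2rb with Kit was also called. Csf1r with Csf2ra and Csf2rb with Csf2rb2 were each called in 7 of the 8 sets of 7 libraries, but Csf1r with Il3ra in 2 and Csf2ra with Il3ra in 3. The correlation of Csf1r with Csf2ra stayed between 0.931 and 0.970 and that of Csf2rb with Csf2rb2 between 0.914 and 0.949 when any 1 library was left out. The strongest negative relations were those of Kit with Csf2rb (r = -0.786, exact permutation p = 0.0282, adjusted p = 0.169; rho = -0.833) and with Csf2rb2 (r = -0.783, exact permutation p = 0.0186, adjusted p = 0.134). For Kit and Csf2rb2 the rank correlation passed (rho = -0.929, exact permutation p = 0.00223, adjusted p = 0.0201) while Pearson's r did not, and r was -0.683 without the 2 libraries farthest from the median of Csf2rb2. Of the genes nearest in pattern, Ccl9, a chemokine, and B3gnt1 followed Csf2ra (root mean square difference 0.18 and 0.17, median 0.772), and Amdhd2 and H2-T23 followed Csf1r (0.18 each, median 0.722). Arl11 and Cass4 followed Il3ra (0.12 and 0.18, median 0.874), and Tram2 and Mlycd followed Csf2rb (0.14 and 0.15, median 0.701).

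**Figure D5:**
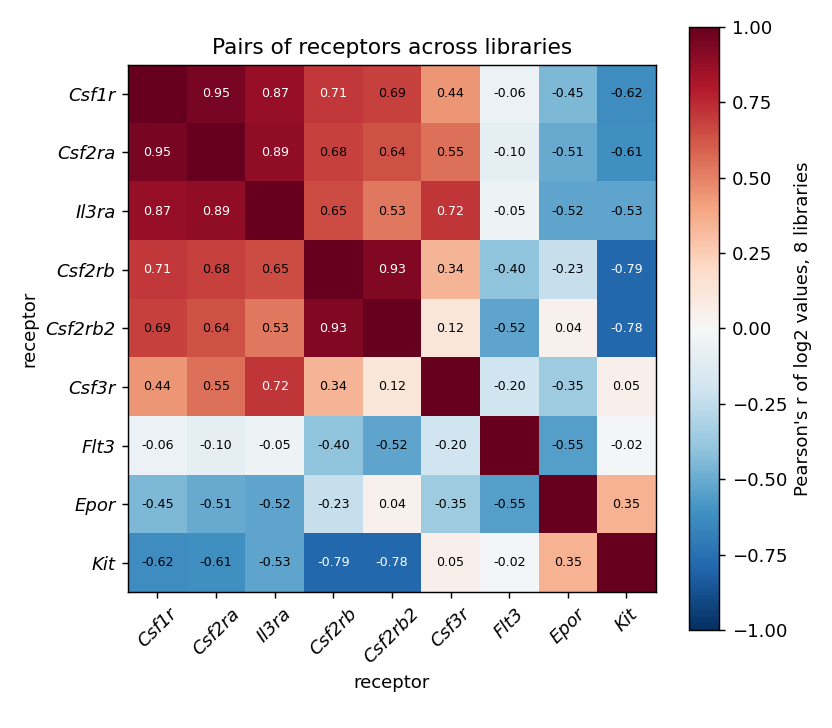
Pearson's r of log2 values over the 8 libraries for each of the 36 pairs of receptors (both axes), red for positive and blue for negative. Csf1r, Csf2ra and Il3ra form one block of high values and Csf2rb with Csf2rb2 another, and Kit is negative against all 5.

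Facts of the whole series that touch these values are few. The recovered depth was 30502718 to 35719495 reads per library. A count of 3 reads equals a deposited value of 3.66 to 4.29, so every receptor in every library was above that floor. Reads of Trp53 (189 to 393 in the 11B3-deleted group, 300 to 577 in the p53-loss-only group) do not check the labels, since gene totals do not separate a floxed exon from the rest, and both groups carry the hairpins against Nf1 (405 to 820) and Mll3 (2656 to 4269). Mpo, the myeloid peroxidase, was at 75329 or more in every library. With no non-myeloid library to compare, that level does not test the labelled myeloid identity. The summed B cell markers were highest in 11B3-deleted replicate 3 (116324), where the next highest library had 17583. The summed erythroid markers were highest in 11B3-deleted replicate 1 (224887), where the next highest library had 60398. Without 11B3-deleted replicate 3, the log2 differences were -0.72 for Flt3 and 0.84 for Csf2rb2. Without 11B3-deleted replicate 1, that of Epor was 1.73.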

How the data were processed

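Total RNA of 8 leukaemia libraries, 4 per genotype, was sequenced by the authors. Per the submitters' processing notes, the tools were STAR, HTSeq and DESeq and the build mm9; no roles or versions are given. Each library has a table of 18860 genes with 1 deposited signal value per gene, which the values show to be reads divided by a size factor, plus 1. Whole reads were recovered for 100% of the values (tolerance 0.02).

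Groups came from the sample titles. The main test was limma (3.58.1) with its variance trend, run on log2 deposited values in which the added 1 serves as pseudocount, which understates folds of low genes. Genes at 10 or more in at least 4 libraries were tested (14679), two-sided, with Benjamini-Hochberg adjustment at 0.05. Alternatives were TMM rescaling, no filter, a filter at 50, an added constant of 5, edgeR (4.0.16) and DESeq2 (1.42.0) on the recovered reads, the replicate number as a block and each library left out, in R 4.3.3; those of the receptor pairs were added after seeing the data, as was the test of pairs itself. The fits were run on simulated data as a check of their working only. Recovery was required for large changes at a spread set by hand, so the check does not give the power at the spread of these libraries.

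The members and lists were chosen with earlier results of these data known. Named genes are the receptors, up to 4 genes with the smallest p per list, and the 2 genes nearest each receptor by root mean square difference (mean value of at least 100, predicted genes left out); others are marked in the text. Transcript lengths and shared windows come from GENCODE M21 (another build, GRCm38), promoters from RefSeq. No replicate pair agreed within sampling noise (chi-square per gene of at least 94.4). Molecular identifiers are not named in the sources used here, and Poisson intervals and floors cover counting error only.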

Additional observations from a re-analysis of the deposited data

Results flagged for a closer look

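Within each genotype, the highest and lowest library were checked for standing apart from the other 3 on the log2 scale, a check that chance meets in about 5% of groups. Of 18 receptor and group combinations, 1 stood apart: Kit in 11B3-deleted replicate 2, at 658.52 where the other 3 were between 3362.1 and 4132.7. Of 125 combinations of other named genes, 3 stood apart. Epo in 11B3-deleted replicate 1 was at 198.21, with no read in the other 3. Since those 3 share the value of no reads, any read in the remaining library would have met the check, and Epo was chosen after its values were seen, so its outcome there was fixed and is no test. Inpp5d in 11B3-deleted replicate 2 was at 13386 against 10688 to 10878, and Mitf in 11B3-deleted replicate 4 at 877 against 526.35 to 569.21. No cause was tested.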

How the results depend on the processing

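The count of receptors called was 0 and that of listed pathway genes 0 under every alternative run: TMM rescaling, no filter, the stricter filter, the constant of 5, edgeR, DESeq2, the replicate block and each library left out. Over all genes limma called 2; the stricter filter, the constant of 5 and edgeR left 1, DESeq2 called 58, the replicate block left 0, and leaving out 1 library gave 0 to 1. Of 135 receptor values recomputed, 130 kept their direction and 0 were called (smallest adjusted p = 0.613). The 5 reversals were all of small differences: leaving out 1 library gave -0.142 to 0.409 for Csf2rb (main 0.139) and -0.529 to 0.84 for Csf2rb2 (main 0.315). The other 7 kept their direction but moved: Csf3r from -0.6 to -0.0212, Csf1r from -0.81 to -0.279, Csf2ra from -0.941 to -0.461, Il3ra from -1.27 to -0.551, Kit from 0.0679 to 1.11, Flt3 from -0.941 to -0.322 and Epor from 1.68 to 3.70. For 5 receptors 1 omission gave a limma unadjusted p under 0.05: 0.0228 for Csf3r and 0.0107 for Il3ra without 11B3-deleted replicate 4, 0.0484 for Csf2ra without p53-loss-only replicate 4, 0.00512 for Flt3 without p53-loss-only replicate 1 and 0.029 for Epor without p53-loss-only replicate 2; their adjusted p ran from 0.891 to 1. The number of receptor pairs past the threshold, 4, was 4 with TMM and with the constant of 5, and 0 to 4 leaving out 1 library. Replicate numbers share no stated batch. The correlation of deviations of same-numbered libraries was -0.03, -0.217, -0.414 and -0.243, so the replicate block is given as a value only (log2 difference of Epor 2.57, p = 0.136 against 0.126 without it). Epor in 2 libraries rests on 15 and 20 reads, and every other receptor value on at least 98 reads.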
